A study of Homo sapiens with 60 samples.

Results

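The genes described here are 40 genes of the DNA replication fork and of S phase, the part of the cell cycle in which the genome is copied. They were chosen by name, but with earlier results of these data known. They are DNA polymerases, fork factors, enzymes of nucleotide supply and factors that rebuild chromatin on new DNA, without the genes that license replication origins. All 40 were found among the 38342 gene names of the deposited table, and all 40 were among the 15866 genes tested. The cells were MDA-MB-231, an established human breast cancer line of the triple-negative kind, given the solvent DMSO or BAY2506856, a compound whose target the labels do not give, at 100, 300 or 1000 nM. Poly(A) RNA was sequenced after 1, 3, 6 or 24 h by the sample labels, whereas the design text of the series names a harvest at 24 h only. Each time had 6 DMSO libraries and 3 libraries of each dose, 60 libraries in 16 groups. Whether replicates came from separate cultures is not given in the labels, and p-values here therefore cover only the spread among these libraries.

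At a replication fork a helicase that contains CDC45 and the GINS complex unwinds the parental DNA, and primase with DNA polymerase alpha lays down short primers. Polymerases epsilon and delta extend these primers on the leading and the lagging strand, held to the template by the sliding clamp PCNA, which clamp loaders place on DNA, while the protein RPA covers the exposed single strands. Many of these genes are transcribed in a burst at the entry into S phase through E2F transcription factors, so their RNA is widely read as a sign of how many cells are about to replicate or are replicating.

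Depth, as reads recovered from the values, lay between 0.475 and 86.5 M (median 11.2 M), and 3 libraries had under 2 M: DMSO replicate 2 at 24 h, 300 nM replicate 2 at 24 h and 1000 nM replicate 2 at 3 h. By their values the libraries were of 3 types, for which the labels give no account, the first with 41 libraries, the second with 13 and the third with 6. At 24 h the second type held 1 of 6 DMSO libraries (replicate 2), none of the 100 nM libraries, 1 of 3 at 300 nM (replicate 2) and 2 of 3 at 1000 nM (replicates 1 and 3). The second type shifted 32 of the 40 genes against the first in a fit with a term for each type (limma, adjusted p under 0.05), from -0.83 for POLD1 to 0.61 for CLSPN on the log2 scale. The third type, found only in DMSO libraries at 1 and 3 h, shifted 11 of the 40. The share of all genes shifted by type was not computed, so these counts do not set the 40 genes apart from others. VIM, CD44, AXL and MSN, genes of mesenchymal breast cancer lines, were high in every library (VIM at 397 to 642 FPKM, the read count per kilobase of transcript and per M reads). Of 6 luminal and receptor genes, ESR1 was at 0 in 59 of 60 libraries, PGR was at 0 in 44 and CDH1 had a median of 0.247 FPKM, whereas ERBB2, EPCAM and GATA3 had medians of 8.73, 6.14 and 3.51 FPKM. Of 3 immune genes, CD3E was at 0 in all 60 libraries, PTPRC reached 0.101 FPKM and CD14 had a median of 1.63 FPKM.

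At 24 h nearly all of these genes were lower in treated cells. With limma on log2(FPKM + 0.5), 32 of the 40 were called lower than DMSO at 100 nM, 39 at 300 nM and 39 at 1000 nM (Benjamini-Hochberg adjusted p under 0.05 over all genes tested), and none was called higher. Over all genes tested, 9.2%, 14.2% and 15.6% were called lower at these doses and 10.5%, 16.5% and 19.1% higher. The median log2 change of the 40 genes was -0.65, -1.05 and -1.20, against 0.05, 0.05 and 0.03 for all genes tested, and their range at 1000 nM ran from -2.34 for PRIM1 to -0.26 for RFC1. All treated libraries lay below all DMSO libraries for 32 genes at 100 nM, 34 at 300 nM and 36 at 1000 nM, where 12.1%, 10.9% and 10.6% of all genes tested were so placed. The 3 doses share the same DMSO libraries, so their counts are not separate support. In bulk RNA, fewer cells in S phase and less RNA of these genes per cell cannot be told apart.

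**Figure D1:**
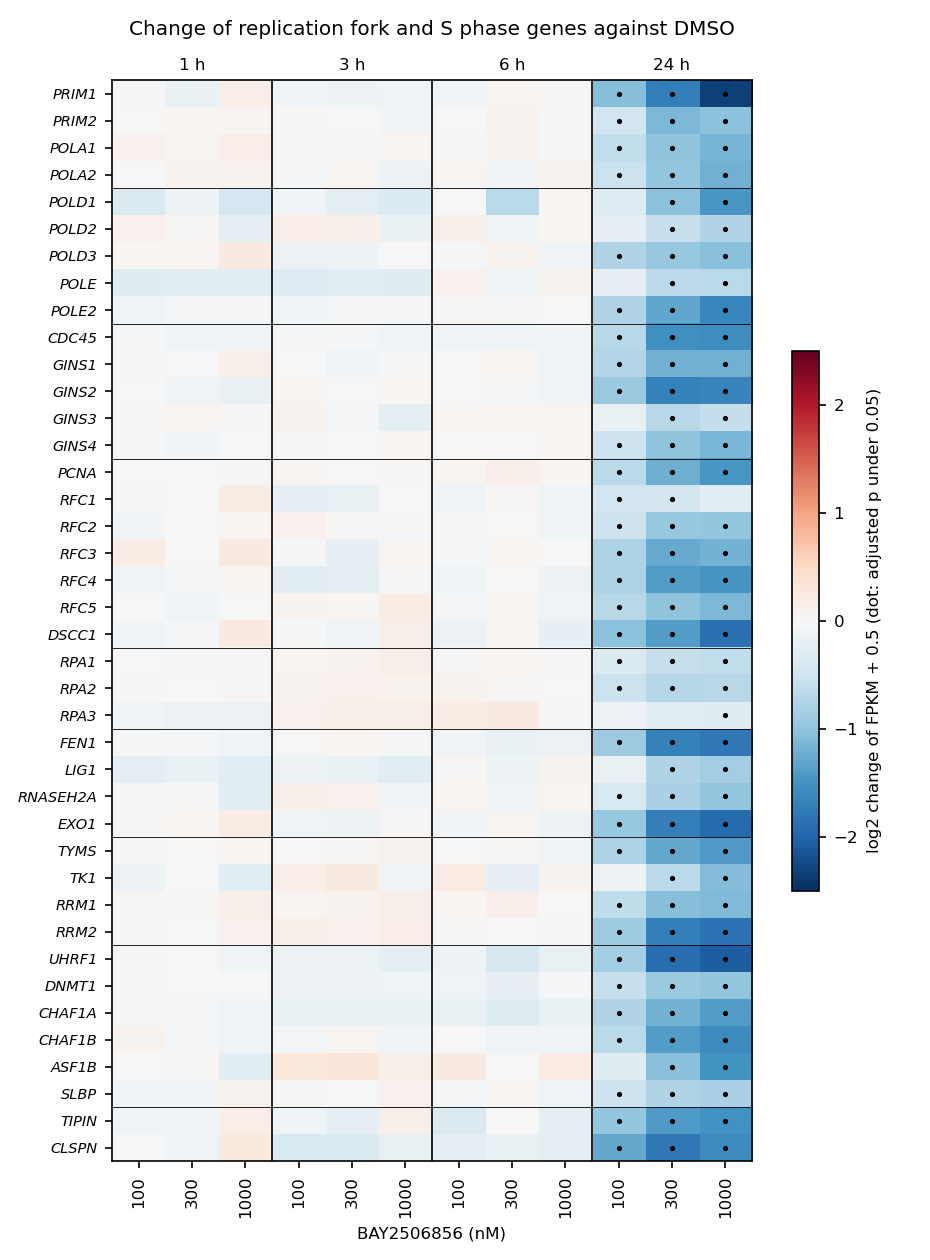
Log2 change of FPKM + 0.5 against DMSO of the same time for the 40 genes (rows, grouped by role) at 100, 300 and 1000 nM and at 1, 3, 6 and 24 h (columns), with a dot where the limma adjusted p was under 0.05. Dots stand in the 24 h columns only, 32 at 100 nM, 39 at 300 nM and 39 at 1000 nM, and the darkest cell is PRIM1 at 1000 nM with -2.34.

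Promoters are shown because the 40 genes moved together and many are known for a shared promoter element. The first 4 are the genes with the lowest change at 1000 nM among those with an E2F-like match before a start, so that they show the element, and EXO1 and FEN1, without such a match, were passed over. The last 2 are the genes with the change nearest to 0 that the table holds, taken without regard to matches, so the 2 sets are no comparison. Each line gives the 250 bases before the transcription start, 5′ to 3′ on the gene's strand, from RefSeq on GRCh38.p14, a later build than the hg19 of the deposited values. They are PRIM1 at chr12:56752324-56752573 (minus strand), UHRF1 at chr19:4909251-4909500 (plus), RRM2 at chr2:10122318-10122567 (plus), GINS2 at chr16:85688955-85689204 (minus), RFC1 at chr4:39366363-39366612 (minus) and GINS3 at chr16:58392221-58392470 (plus). Capitals mark matches on either strand to letters like those bound by E2F factors, for which the word TTCCCGC was searched together with its variants, of which one is TTGGCGC and the other is TTCGCGC.
PRIM1: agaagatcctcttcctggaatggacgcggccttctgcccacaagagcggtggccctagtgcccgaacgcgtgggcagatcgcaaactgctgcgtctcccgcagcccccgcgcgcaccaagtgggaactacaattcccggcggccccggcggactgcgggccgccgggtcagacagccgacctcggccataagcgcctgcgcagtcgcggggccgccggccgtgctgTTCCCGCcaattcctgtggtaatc
UHRF1: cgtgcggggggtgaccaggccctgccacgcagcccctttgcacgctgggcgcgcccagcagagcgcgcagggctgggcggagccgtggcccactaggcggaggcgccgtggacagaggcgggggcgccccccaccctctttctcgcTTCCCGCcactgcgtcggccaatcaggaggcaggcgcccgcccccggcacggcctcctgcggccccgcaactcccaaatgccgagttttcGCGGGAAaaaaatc
RRM2: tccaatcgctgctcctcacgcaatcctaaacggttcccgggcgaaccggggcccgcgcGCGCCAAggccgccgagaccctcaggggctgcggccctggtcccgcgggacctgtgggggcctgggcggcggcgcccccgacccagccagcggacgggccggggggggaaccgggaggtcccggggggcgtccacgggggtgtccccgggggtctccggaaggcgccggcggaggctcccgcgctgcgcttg
GINS2: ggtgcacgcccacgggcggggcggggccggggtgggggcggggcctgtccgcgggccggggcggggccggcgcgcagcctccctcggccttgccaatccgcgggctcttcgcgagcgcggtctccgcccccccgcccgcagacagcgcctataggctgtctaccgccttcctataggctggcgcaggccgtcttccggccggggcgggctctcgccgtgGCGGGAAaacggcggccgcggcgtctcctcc
RFC1: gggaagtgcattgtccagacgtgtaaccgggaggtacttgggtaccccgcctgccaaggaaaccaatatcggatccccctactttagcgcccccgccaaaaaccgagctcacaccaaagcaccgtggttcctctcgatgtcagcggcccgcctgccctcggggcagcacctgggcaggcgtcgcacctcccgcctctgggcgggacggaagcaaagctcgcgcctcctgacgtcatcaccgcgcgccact
GINS3: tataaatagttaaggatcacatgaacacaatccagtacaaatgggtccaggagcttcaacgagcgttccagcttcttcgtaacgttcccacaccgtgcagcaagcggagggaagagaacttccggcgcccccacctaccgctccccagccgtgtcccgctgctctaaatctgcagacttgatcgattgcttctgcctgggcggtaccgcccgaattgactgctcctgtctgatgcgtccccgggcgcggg
UHRF1 held 2 matches, PRIM1, RRM2 and GINS2 held 1 each, and RFC1 and GINS3 held 0. UHRF1 has 3 starts in the table and RRM2 has 2, and of these the first start with a match before it was shown. The windows searched for all genes also take in the 50 bases after the start, and in these the other starts held 1 and 0 matches for UHRF1 and 0 for RRM2, while RFC1 had 2 matches and GINS3 had 1.

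Of the 40 genes, 35 had a promoter in the RefSeq table (not GINS4, DSCC1, RPA2, RPA3 or POLD3). An E2F-like match in any window of the gene was found in 27 of these 35 (77.1%), against 22.3% of the 8747 tested genes with a promoter and 13.1% of all 27305 genes of the table. The share is not particular to the 40 genes, as 9 of 11 licensing genes (81.8%) had a match. So did 5 of 12 polymerases that do not copy at the fork (41.7%) and 2 of 13 mitosis genes (15.4%). The letters CCAAT, searched on both strands, were in 57.1% of the 35 and in 43.5% of the tested genes. The letters GGGCGG, on both strands, were in 77.1% of the 35 and in 78.1% of the tested genes. All 6 clamp and loader genes and all 4 nucleotide supply genes of the table had an E2F-like match, whereas 2 of 4 did so among the polymerase delta and epsilon genes and 2 of 4 among the Okazaki fragment and nuclease genes. FEN1, with a log2 change of -1.79 at 1000 nM, had none in its window, and LIG1, with -0.86, had 3. Matches of these words can overlap with each other and were each counted. A match is a description of letters, not of binding.

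Primase and polymerase alpha start every new DNA strand, and their 4 genes were called lower at every dose at 24 h, with medians of -0.58, -1.07 and -1.18. PRIM1, the catalytic primase subunit, ranged from 10.5 to 17.8 FPKM with a median of 11.4 in the 6 DMSO libraries, and was at 5.38, 5.21 and 6.24 FPKM at 100 nM, 3.05, 4.46 and 2.67 at 300 nM and 1.29, 2.20 and 2.76 at 1000 nM. The DMSO library at 17.8 FPKM was replicate 2, the shallowest of the study, and no treated library overlapped with DMSO. The log2 change was -1.06 ± 0.15 (SE) at 100 nM, -1.73 ± 0.15 at 300 nM and -2.34 ± 0.15 at 1000 nM, the last with a limma adjusted p of 1.63e-17. That is 5.07-fold lower on the scale of FPKM + 0.5, a scale that understates the change of low genes. Depth limits this value, as PRIM1 rested on 7 recovered reads in the library where it had the fewest. Within the first library type, which leaves 1 library at 1000 nM, the change was -2.13.

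PRIM2, the large primase subunit, had a change nearer to 0. Its DMSO libraries held 11.5 to 14.6 FPKM with a median of 13.7, and the treated ones 8.27, 10.5 and 9.54 at 100 nM, 6.17, 5.33 and 6.06 at 300 nM and 6.11, 5.48 and 7.26 at 1000 nM. No treated library reached the DMSO range, and the values at 300 and 1000 nM overlapped with each other. On the log2 scale the change was -0.48 ± 0.11 (SE), -1.12 ± 0.11 and -1.03 ± 0.11 at the 3 doses (limma adjusted p = 0.00109, 1.48e-11 and 1.22e-10). POLA1 and POLA2, the catalytic and the accessory subunit of polymerase alpha, lay between them with -1.16 and -1.21 at 1000 nM.

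Polymerases delta and epsilon copy most of the genome. Their 5 genes were all called lower at 300 and 1000 nM, and 2 of 5 (POLD3 and POLE2) at 100 nM. POLE2, the second subunit of polymerase epsilon, had 13.1 to 17.1 FPKM with a median of 14.5 in DMSO, then 8.70, 8.02 and 8.80 at 100 nM, 5.55, 6.07 and 5.39 at 300 nM and 3.35, 4.84 and 5.21 at 1000 nM. All treated libraries lay below DMSO, and those at 1000 nM below those at 300 nM. Its log2 change at 1000 nM was -1.63 ± 0.09 (SE), 3.10-fold lower (limma adjusted p = 2.59e-20).

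POLE, the catalytic subunit of the same polymerase, had 2.49 to 3.82 FPKM with a median of 3.35 in DMSO, 2.87, 2.59 and 2.53 at 100 nM, 2.11, 1.47 and 2.07 at 300 nM and 1.73, 2.03 and 1.71 at 1000 nM. The 100 nM libraries overlapped with DMSO and the others did not. Against DMSO the log2 change was -0.23 ± 0.19 (SE) at 100 nM (limma adjusted p = 0.443) and -0.68 ± 0.19 at 1000 nM (adjusted p = 0.004). At 300 nM it was -0.65, and without 300 nM replicate 2, a shallow library of the second type, it was -0.52 with an adjusted p of 0.0737, whereas within the first type it was -0.58 (adjusted p = 2.64e-06).

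Polymerase delta was represented by 3 genes. POLD3, an accessory subunit, had 9.71 to 11.6 FPKM with a median of 10.0 in DMSO, 6.04, 5.67 and 5.79 at 100 nM, 4.30, 7.30 and 4.15 at 300 nM and 4.65, 3.75 and 6.03 at 1000 nM. None of the treated libraries overlapped with DMSO, and the highest at 300 nM was replicate 2. The fitted log2 change was -0.76 ± 0.13 (SE), -0.94 ± 0.13 and -1.04 ± 0.13 (limma adjusted p = 1.07e-05, 5.07e-08 and 4.21e-09). POLD1, the catalytic subunit, ranged from 4.25 to 10.5 FPKM in DMSO and from 1.55 to 4.16 at 1000 nM, a log2 change of -1.45 ± 0.35 (SE) that was -0.91 within the first library type (adjusted p = 0.03). POLD2, another accessory subunit, changed by -0.75 ± 0.18 at 1000 nM and by -0.46 within the first type. At 300 nM, leaving out replicate 2 put POLD1 at -0.76 (adjusted p = 0.168) and POLD2 at -0.30 (adjusted p = 0.275). Within the first type, which leaves out that library and all others of its kind, both were called, POLD1 at -0.91 (adjusted p = 0.00386) and POLD2 at -0.37 (adjusted p = 0.00247).

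CDC45 and GINS join the MCM ring to form the active helicase. All 5 of their genes were called lower at 300 and 1000 nM, and 4 of 5 at 100 nM. GINS2 had 10.2 to 13.3 FPKM with a median of 10.9 in DMSO, 6.27, 4.67 and 6.24 at 100 nM, 3.14, 3.00 and 3.32 at 300 nM and 3.44, 2.58 and 3.75 at 1000 nM. Every treated library was below DMSO, and the libraries at 300 and 1000 nM shared a range. For GINS2 the log2 change was -0.92 ± 0.09 (SE), -1.68 ± 0.09 and -1.65 ± 0.09 (limma adjusted p = 1.06e-10, 5.12e-20 and 7.08e-20).

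CDC45, the factor that joins GINS on the MCM ring, had 12.3 to 14.8 FPKM with a median of 14.1 in DMSO, 8.96, 8.22 and 7.90 at 100 nM, 4.85, 3.63 and 5.04 at 300 nM and 6.00, 3.74 and 3.75 at 1000 nM. The groups at 300 and 1000 nM overlapped, and neither overlapped with 100 nM or DMSO. The log2 change was -0.70 ± 0.09 (SE), -1.53 ± 0.09 and -1.55 ± 0.09 (limma adjusted p = 4.29e-08, 3.24e-19 and 1.26e-19). GINS1 and GINS4 stood at -1.21 and -1.14 at 1000 nM.

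GINS3 had the smallest change of the helicase genes. Its DMSO libraries held 2.02 to 3.77 FPKM with a median of 3.53, those at 100 nM 3.26, 2.43 and 2.75, those at 300 nM 2.12, 1.28 and 2.09 and those at 1000 nM 1.94, 1.91 and 2.09. The low DMSO value was replicate 2, in which GINS3 rested on 5 recovered reads. All doses overlapped with DMSO, those at 300 and 1000 nM through that library alone. On the log2 scale the change was -0.18 ± 0.11 (SE), -0.70 ± 0.11 and -0.59 ± 0.11 (limma adjusted p = 0.293, 1.90e-06 and 3.47e-05). Without DMSO replicate 2 the change at 100 nM was -0.29 with an adjusted p of 0.0275.

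**Figure D2:**
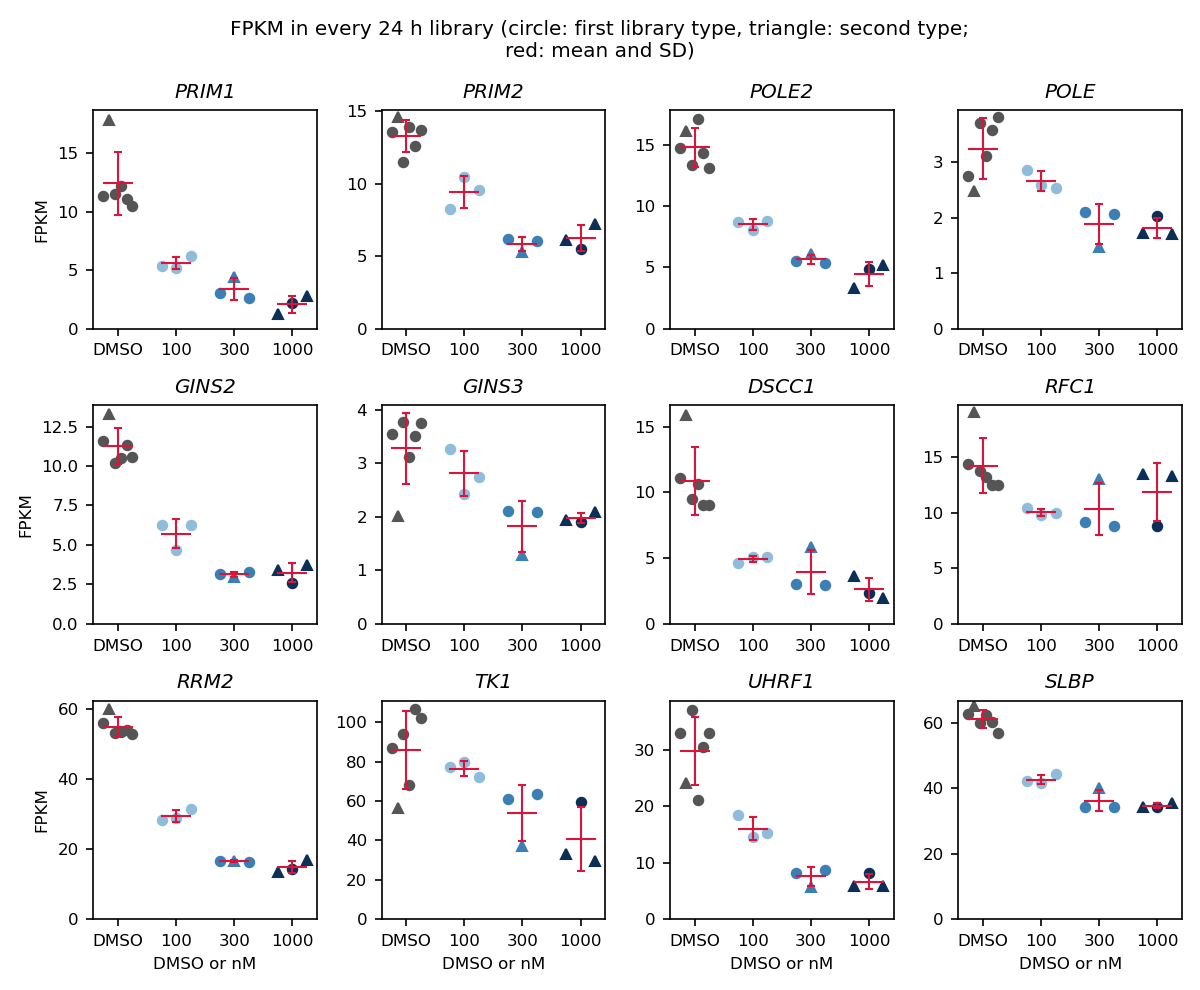
FPKM of 12 of the 40 genes in every 24 h library (vertical axis, from 0) for DMSO and for 100, 300 and 1000 nM (horizontal axis), with circles for libraries of the first type, triangles for the second type and the group mean with its SD in red. PRIM1 fell from a DMSO mean of 12.4 to 2.08 FPKM at 1000 nM without overlap, whereas for RFC1 the triangles lie high in DMSO, at 300 nM and at 1000 nM.

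PCNA, the clamp, had the highest level of the 40 genes in DMSO at 24 h, 156 ± 6.04 FPKM (SD, n = 6), against 3.24 ± 0.548 for POLE, the lowest, on this scale per length. PCNA fell to 93.4, 95.4 and 104 FPKM at 100 nM, 59.3, 82.4 and 60.9 at 300 nM and 56.5, 54.1 and 59.6 at 1000 nM. All these lay below the DMSO range of 147 to 163, and PCNA at 1000 nM was 2.73-fold lower (log2 -1.45 ± 0.07, SE, limma adjusted p = 4.34e-22). Among the clamp and loader genes, 7 of 7 were called lower at 100 and 300 nM and 6 of 7 at 1000 nM.

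DSCC1 belongs to an alternative clamp loader that also serves sister chromatid cohesion. It had 9.02 to 15.9 FPKM with a median of 10.1 in DMSO, 4.67, 5.10 and 5.09 at 100 nM, 3.03, 5.84 and 2.94 at 300 nM and 3.63, 2.34 and 1.97 at 1000 nM. The treated libraries were all below DMSO, with the highest of DMSO and of 300 nM again in replicate 2 of each. Against DMSO the log2 change was -1.03 ± 0.18 (SE), -1.39 ± 0.18 and -1.86 ± 0.18 (limma adjusted p = 1.31e-05, 9.62e-09 and 2.57e-12). The small loader subunits RFC2, RFC3, RFC4 and RFC5 were at -0.97, -1.19, -1.48 and -1.13 at 1000 nM.

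RFC1, the large subunit of the canonical loader, was the gene not called at 1000 nM. It ranged from 12.5 to 19.1 FPKM with a median of 13.5 in DMSO and was at 10.4, 9.82 and 9.94 at 100 nM, 9.15, 13.0 and 8.81 at 300 nM and 13.5, 8.85 and 13.3 at 1000 nM. The 3 treated libraries at or above 13.0 FPKM were those of the second type, and so was the DMSO library at 19.1. The fitted log2 change was -0.47 ± 0.15 (SE), -0.45 ± 0.15 and -0.26 ± 0.15 (limma adjusted p = 0.0211, 0.0165 and 0.182). With library type terms RFC1 was at -0.39, -0.53 and -0.49, and the adjusted p at 1000 nM was 3.23e-08, while within the first type it was at -0.56 there (adjusted p = 1.37e-05). Its call at 100 nM was lost without any of the 3 libraries of that dose (-0.45 to -0.49) or without DMSO replicate 2 (-0.38), and at 300 nM without replicate 1 (-0.38), without replicate 3 (-0.36) or without DMSO replicate 2 (-0.37).

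RPA binds single-stranded DNA, and its 3 genes had a median of -0.61 at 1000 nM, the nearest to 0 of the 9 roles (a description, with no test between roles). RPA2, the middle subunit, had 33.8 to 43.8 FPKM with a median of 38.9 in DMSO, 25.5, 27.0 and 28.7 at 100 nM, 21.3, 29.1 and 21.6 at 300 nM and 24.1, 22.1 and 26.2 at 1000 nM. All treated libraries were below DMSO, and the 3 doses overlapped with each other. For RPA2 the log2 change was -0.53 ± 0.07 (SE), -0.71 ± 0.07 and -0.69 ± 0.07 (limma adjusted p = 1.04e-07, 1.43e-11 and 2.35e-11). RPA1, the large subunit, stood at -0.61 at 1000 nM.

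RPA3, the small subunit, overlapped with DMSO at every dose. It had 9.68 to 13.4 FPKM with a median of 11.7 in DMSO, 9.27, 11.7 and 11.1 at 100 nM, 8.61, 10.6 and 9.49 at 300 nM and 7.93, 8.86 and 11.9 at 1000 nM. The lowest library was at 1000 nM and the highest in DMSO. The log2 change was -0.14 ± 0.12 (SE), -0.28 ± 0.12 and -0.30 ± 0.12 (limma adjusted p = 0.468, 0.0584 and 0.04). The call at 1000 nM was lost without 1000 nM replicate 1 (-0.18) or 2 (-0.26), or without DMSO replicate 1 (-0.29), 2 (-0.26) or 4 (-0.27), and without 1000 nM replicate 3 the change was -0.46. At 300 nM RPA3 was called without replicate 2 of that dose (-0.36) or without DMSO replicate 3 (-0.34), and with library type terms (-0.31, adjusted p = 0.0146) or within the first type (-0.32, adjusted p = 0.0143).

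FEN1, the flap nuclease that trims Okazaki fragments, had the smallest adjusted p of the 40 genes. It lay between 61.0 and 68.2 FPKM in DMSO, at 34.7, 34.6 and 35.0 at 100 nM, at 20.2, 19.1 and 20.9 at 300 nM and at 18.3, 18.1 and 19.1 at 1000 nM. The 100 nM libraries lay apart from both sides, and at 300 and 1000 nM the lowest and the highest library were both at 19.1. On the log2 scale the change was -0.90 ± 0.05 (SE), -1.68 ± 0.05 and -1.79 ± 0.05 (limma adjusted p = 1.80e-20, 3.67e-32 and 1.98e-33).

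EXO1, an exonuclease of mismatch repair and fork processing, had the lowest change of this group. It had 11.8 to 17.0 FPKM with a median of 12.9 in DMSO, 6.75, 5.94 and 7.47 at 100 nM, 3.17, 5.38 and 3.03 at 300 nM and 2.72, 2.55 and 4.39 at 1000 nM. No treated library overlapped with DMSO. Against DMSO the log2 change was -0.94 ± 0.14 (SE), -1.70 ± 0.14 and -1.92 ± 0.14 (limma adjusted p = 9.12e-07, 2.85e-14 and 3.64e-16). LIG1, the ligase that seals Okazaki fragments, had 5.97 to 11.0 FPKM with a median of 8.81 in DMSO, 7.75, 7.08 and 6.86 at 100 nM, 5.27, 3.64 and 5.45 at 300 nM and 4.65, 5.02 and 3.49 at 1000 nM. Its 100 nM libraries lay inside the DMSO range and the others below it. The log2 change of LIG1 was -0.19 ± 0.17 (SE), -0.75 ± 0.17 and -0.86 ± 0.17 (limma adjusted p = 0.484, 0.000313 and 3.85e-05). RNASEH2A, the catalytic subunit of an enzyme that removes RNA from DNA, was at -0.98 at 1000 nM and at -0.38 at 100 nM, where its call was lost without 100 nM replicate 3 (-0.33, adjusted p = 0.0974).

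Nucleotide supply was led by RRM2, the small subunit of ribonucleotide reductase, the enzyme that makes deoxyribonucleotides. It had 52.7 to 60.0 FPKM with a median of 53.7 in DMSO, 28.2, 28.7 and 31.5 at 100 nM, 16.6, 16.7 and 16.3 at 300 nM and 13.5, 14.3 and 16.8 at 1000 nM. The 4 groups of RRM2 were separate except for the highest library at 1000 nM. The fitted log2 change was -0.89 ± 0.06 (SE), -1.70 ± 0.06 and -1.85 ± 0.06 (limma adjusted p = 2.89e-15, 7.63e-27 and 1.70e-28). RRM1, the large subunit, was at -1.10 at 1000 nM, and TYMS, thymidylate synthase, at -1.41, from a DMSO mean of 125 ± 10.5 FPKM (SD, n = 6).

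TK1, the cytosolic thymidine kinase of the salvage route, had 56.6 to 107 FPKM with a median of 90.6 in DMSO, 77.5, 79.7 and 72.3 at 100 nM, 61.1, 37.4 and 63.4 at 300 nM and 33.3, 59.5 and 29.7 at 1000 nM. All doses overlapped with DMSO, whose lowest library was replicate 2, and the lower values at 300 and 1000 nM were in libraries of the second type. For TK1 the log2 change was -0.13 ± 0.23 (SE), -0.67 ± 0.23 and -1.09 ± 0.23 (limma adjusted p = 0.75, 0.021 and 0.00013). Within the first type it was -0.24, -0.54 and -0.60 (adjusted p = 0.0632, 0.000367 and 0.00227). At 300 nM it was -0.42 without replicate 2 (adjusted p = 0.24).

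The 6 chromatin genes were called lower at 300 and 1000 nM, and 5 of 6 at 100 nM. UHRF1, which brings the methyltransferase DNMT1 to newly copied DNA, had 21.1 to 37.1 FPKM with a median of 31.7 in DMSO, 18.4, 14.5 and 15.2 at 100 nM, 8.21, 5.70 and 8.76 at 300 nM and 5.94, 8.15 and 5.84 at 1000 nM. Its treated libraries were all below DMSO, and the upper doses overlapped. The log2 change was -0.85 ± 0.15 (SE), -1.91 ± 0.15 and -2.07 ± 0.15 (limma adjusted p = 3.29e-05, 2.12e-14 and 9.69e-16). DNMT1 itself was at -0.99 at 1000 nM.

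Histone deposition and histone mRNA genes spanned a wide range. ASF1B, a chaperone of new histones, had 25.1 to 45.4 FPKM with a median of 41.4 in DMSO, 30.7, 33.8 and 30.4 at 100 nM, 22.4, 13.9 and 21.1 at 300 nM and 11.1, 19.3 and 11.3 at 1000 nM. DMSO replicate 2 at 25.1 made the 100 nM group overlap, and the upper doses lay below DMSO. On the log2 scale the change was -0.30 ± 0.19 (SE), -1.04 ± 0.19 and -1.50 ± 0.19 (limma adjusted p = 0.291, 1.43e-05 and 5.49e-09), and the 100 nM value within the first type was -0.42 (adjusted p = 1.59e-07). SLBP, which binds the stem-loop of histone mRNAs, had 57.0 to 65.2 FPKM with a median of 61.3 in DMSO, 42.1, 41.6 and 44.3 at 100 nM, 34.3, 40.0 and 34.4 at 300 nM and 34.2, 34.2 and 35.5 at 1000 nM. All treated libraries of SLBP were below DMSO. Its log2 change was -0.52 ± 0.07 (SE), -0.75 ± 0.07 and -0.81 ± 0.07 (limma adjusted p = 6.29e-07, 1.41e-11 and 9.62e-13). CHAF1A and CHAF1B, subunits of the histone chaperone CAF-1, were at -1.40 and -1.59 at 1000 nM.

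CLSPN and TIPIN stabilise the fork and pass its stress signal to the checkpoint. CLSPN, which encodes Claspin, had 9.13 to 19.1 FPKM with a median of 11.0 in DMSO, 4.53, 4.62 and 4.30 at 100 nM, 2.54, 4.32 and 2.5 at 300 nM and 4.24, 2.37 and 4.16 at 1000 nM. None overlapped with DMSO, and the values above 4 at 300 and 1000 nM were libraries of the second type. Against DMSO the log2 change was -1.28 ± 0.20 (SE), -1.78 ± 0.20 and -1.60 ± 0.20 (limma adjusted p = 2.85e-06, 5.01e-10 and 5.75e-09). It was the lowest of the 40 at 100 nM.

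TIPIN ranged from 7.45 to 13.5 FPKM with a median of 7.67 in DMSO and was at 4.30, 3.94 and 3.99 at 100 nM, 2.62, 3.55 and 2.48 at 300 nM and 2.45, 2.28 and 3.30 at 1000 nM. DMSO replicate 2 stood alone at 13.5, and no treated library overlapped with DMSO. The fitted log2 change was -0.97 ± 0.18 (SE), -1.42 ± 0.18 and -1.51 ± 0.18 (limma adjusted p = 4.41e-05, 8.01e-09 and 1.34e-09).

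The genes not called at 100 nM were POLD1, POLD2, POLE, GINS3, RPA3, LIG1, TK1 and ASF1B, all with a negative change, from -0.32 for POLD1 to -0.13 for TK1. With library type terms 36 of the 40 were called at 100 nM, and within the first type 37. These fits called 13.8% and 16.7% of all genes tested lower, against 9.2% in the main fit. The genes added by both were POLD2 (-0.32 with type terms and -0.30 within the first type, adjusted p = 0.00649 and 0.00558), POLE (-0.28 and -0.29, adjusted p = 0.00427 and 0.00285), GINS3 (-0.22 and -0.29, adjusted p = 0.0493 and 0.0011) and ASF1B (-0.40 and -0.42, adjusted p = 7.74e-06 and 1.59e-07). LIG1 was added within the first type (-0.27, adjusted p = 0.0299) and was at -0.24 with type terms (adjusted p = 0.0591). A p that misses the threshold does not show that these 8 genes stayed level.

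The step from 100 to 300 nM was tested between treated groups, with the spread estimated over all 60 libraries. It was called lower for 19 of the 40 genes against 0.813% of all genes tested, with a median of -0.49 against 0.00. The lowest steps were UHRF1 at -1.05 ± 0.18 (SE), CDC45 at -0.83 ± 0.10 and RRM2 at -0.81 ± 0.07 (limma adjusted p = 0.000127, 1.79e-07 and 2.42e-11). In each of these 3 genes all libraries at 300 nM lay below all at 100 nM, as was so for 9.12% of all genes tested. The steps nearest to 0 were RFC1 at 0.01 ± 0.17, RPA3 at -0.15 ± 0.13 and, at -0.18 each, POLD3 and RPA2 (adjusted p = 0.995, 0.893, 0.882 and 0.516). The count was 34 with library type terms and 32 within the first type, and 0 when only these 6 libraries were fitted. These fits called 2.74%, 3.62% and 0.0252% of all genes tested lower.

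From 300 to 1000 nM, none of the 40 genes was called by limma or by voom on the recovered reads, and 9 of the 40 had an unadjusted limma p under 0.05, as had 5.37% of all genes tested. Of all genes tested, 0.0126% were called lower. The median step was -0.11, the lowest were PRIM1 at -0.61 ± 0.18 (SE), DSCC1 at -0.47 ± 0.20 and ASF1B at -0.46 ± 0.21 (adjusted p = 0.568, 0.851 and 0.887), and the highest RFC1 at 0.19 ± 0.17, CLSPN at 0.18 ± 0.23 and GINS3 at 0.11 ± 0.13 (adjusted p = 0.905, 0.907 and 0.905). For PRIM1 the 95% interval of the step was -0.97 to -0.25, and for GINS2, with a step of 0.03, it was -0.19 to 0.25. With library type terms PRIM1 (-0.72, adjusted p = 0.0104) and DSCC1 (-0.63, adjusted p = 0.0251) were called.

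**Figure D3:**
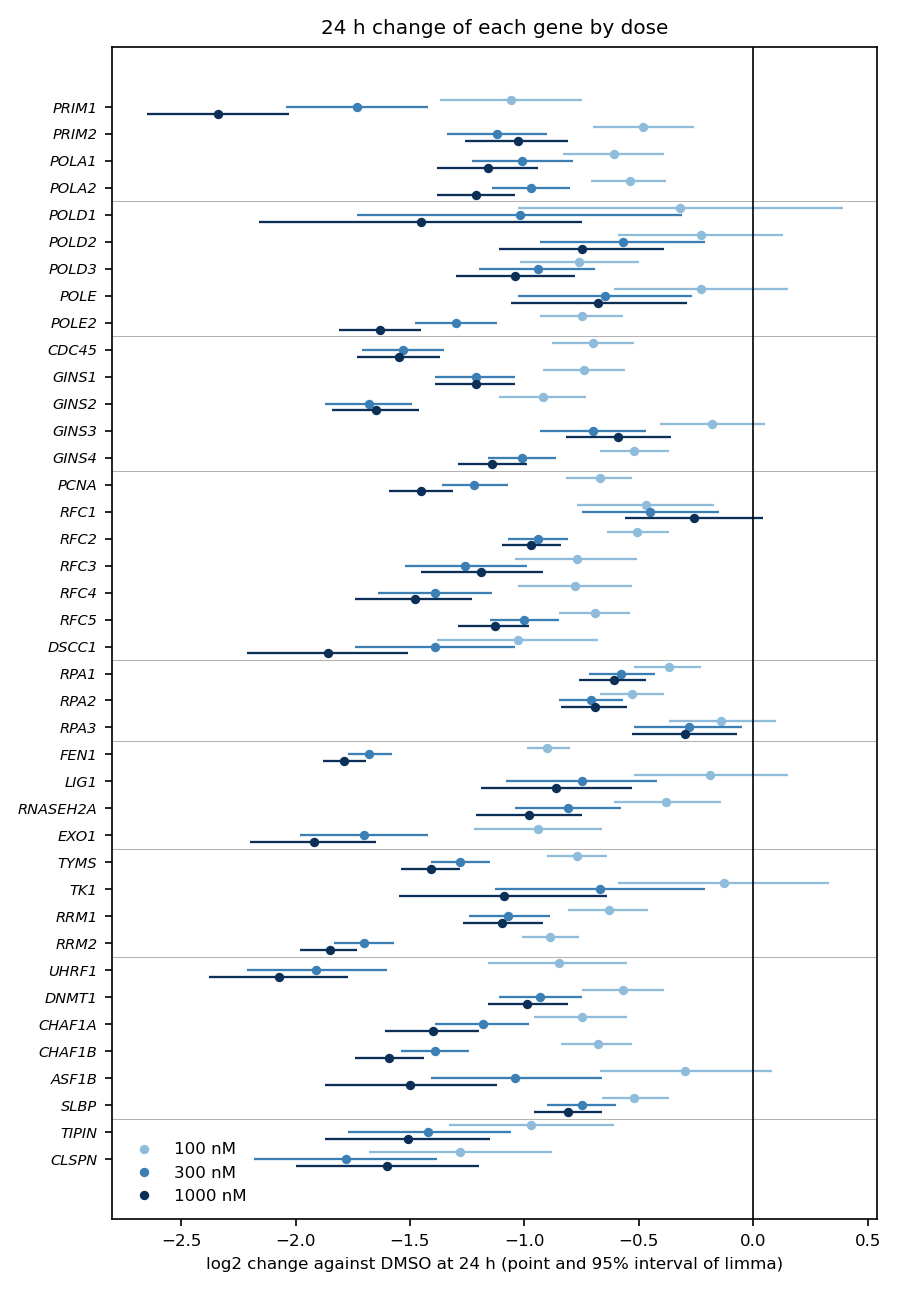
Log2 change against DMSO at 24 h (horizontal axis) of each of the 40 genes (vertical axis, grouped by role) at 100, 300 and 1000 nM, as a point with the 95% interval from limma. The points at 100 nM lie nearest to 0 for most genes, those at 300 and 1000 nM lie close together for GINS2 (-1.68 and -1.65) and apart for PRIM1 (-1.73 and -2.34), and the interval of RFC1 at 1000 nM crosses 0.

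Before 24 h the levels of these genes stayed near DMSO. With limma, 0 of the 40 were called in either direction at 1, 3 and 6 h at any dose, and 0 by voom. The numbers with an unadjusted limma p under 0.05 were 0, 0 and 2 at 1 h for 100, 300 and 1000 nM, 1, 0 and 2 at 3 h, and 1, 4 and 1 at 6 h. That threshold was passed by 5.1%, 1.21% and 10.3% of all genes tested at 1 h, 5.88%, 5.88% and 7.41% at 3 h, and 5.16%, 9.86% and 7.8% at 6 h. With adjustment, the share of all genes called in either direction was 0.0% at each dose at 1 h, 0.0693%, 0.126% and 0.132% at 3 h, and 0.863%, 1.67% and 2.01% at 6 h. The medians of the 40 genes at 6 h were -0.01, 0.01 and -0.04.

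FEN1 had the smallest adjusted p of the 40 at 6 h at 300 and 1000 nM, and is named here after its values were seen. It lay between 73.1 and 81.4 FPKM in DMSO at 6 h, at 71.7 to 74.9 at 100 nM, 65.5 to 71.7 at 300 nM and 66.6 to 71.9 at 1000 nM. The libraries at 300 and 1000 nM were all below DMSO, and the share of all genes so placed at 6 h is not given here. The FEN1 log2 change was -0.16 at 300 nM and an adjusted p of 0.0776 did not pass, whereas with library type terms it was -0.15 at both doses (adjusted p = 0.0224 at 300 nM and 0.0169 at 1000 nM), and without DMSO replicate 5 it was -0.17 at 300 nM (adjusted p = 0.039). CHAF1A was also called at 300 nM and 6 h with type terms (-0.31, adjusted p = 0.0194).

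The mean log2(FPKM + 0.5) of the 40 genes lay between 4.47 and 4.62 in all libraries at 1, 3 and 6 h. At 24 h it was 4.26 to 4.35 in DMSO, 3.68 to 3.72 at 100 nM, 3.18 to 3.26 at 300 nM and 3.05 to 3.11 at 1000 nM. The 4 groups at 24 h did not overlap, and all of them lay below the earlier times.

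**Figure D4:**
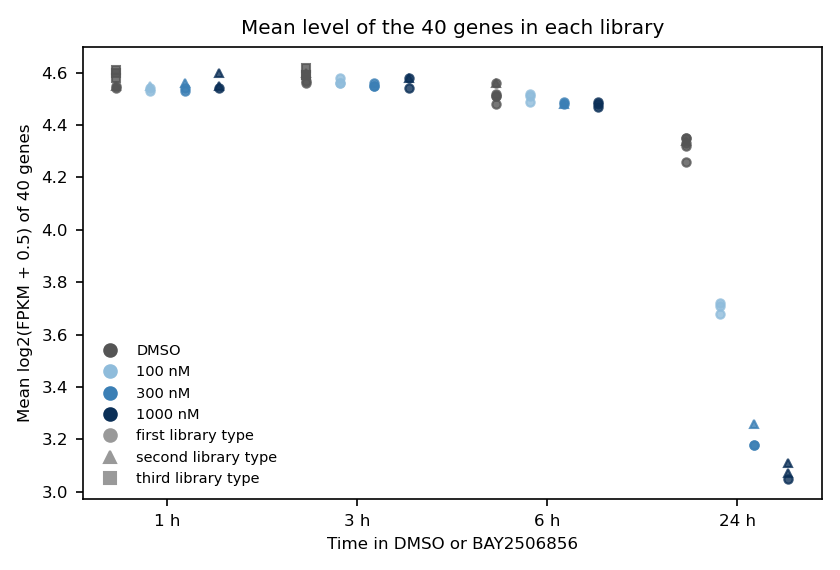
Mean log2(FPKM + 0.5) of the 40 genes in each of the 60 libraries (vertical axis) at 1, 3, 6 and 24 h (horizontal axis), by dose (shade) and library type (symbol). The libraries at 1 to 6 h sit between 4.47 and 4.62 at every dose, and the 24 h libraries fall into 4 levels, from 4.26 to 4.35 in DMSO down to 3.05 to 3.11 at 1000 nM.

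The difference between times was tested as the change of the effect. The effect of 1000 nM at 24 h was lower than that at 6 h for 38 of the 40 genes, against 6.95% of all genes tested, with a median difference of -1.19, and RPA3 (-0.33) and RFC1 (-0.15) were the genes not called. The effect of 100 nM was lower at 24 h for 27 of the 40, against 1.83% of all genes tested, with a median difference of -0.61. PRIM1 had the lowest difference at 1000 nM, -2.29 ± 0.22 (SE, limma adjusted p = 1.74e-11), and CLSPN at 100 nM, -1.06 ± 0.28 (adjusted p = 0.0216).

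Vehicle cells also moved with time. Between 6 and 24 h in DMSO 13 of the 40 genes were called lower and 0 higher, against 4.38% of all genes tested called lower and 4.96% higher, with a median of -0.18 against -0.02. They were CDC45 (-0.57), LIG1 (-0.50), PCNA (-0.38), EXO1 and DNMT1 (-0.34 each), TYMS (-0.33), RRM2 (-0.32), GINS3 (-0.30), CHAF1A (-0.29), FEN1 (-0.25), RPA2 (-0.21), RFC2 and RFC5 (-0.19 each). PCNA was at 190 to 227 FPKM in DMSO at 6 h and at 147 to 163 at 24 h, without overlap. The count was 22 with library type terms, 25 within the first type and 5 when only these 12 libraries were fitted. Of all genes tested, 14.4%, 13.0% and 0.92% were called lower in these fits. Between 1 and 6 h in DMSO 1 gene was called, TYMS, higher by 0.19 ± 0.05 (SE, limma adjusted p = 0.0436), where 1.45% of all genes tested were called higher and 1.03% lower.

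Partner genes of the same complex were set side by side as ratios, 9 pairs in all, which were chosen after the values were seen and are given as a description with no test. The log2 ratio of PRIM1 over PRIM2 was -0.37 to 0.28 in DMSO at 24 h and -1.88 to -1.15 at 1000 nM. RFC4 over RFC1 was 0.07 to 0.37 in DMSO and -1.40 to -0.69 at 1000 nM, and RRM2 over RRM1 was -0.50 to -0.27 and -1.37 to -1.04. These 3 ratios did not overlap between DMSO and 1000 nM.

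The ratio of GINS2 over GINS3 was 1.32 to 2.45 in DMSO and 0.35 to 0.72 at 1000 nM, also without overlap. That of POLE2 over POLE was 1.65 to 2.47 and 0.79 to 1.37, again without overlap. CHAF1B over CHAF1A, the CAF-1 subunits, gave overlapping ranges of -0.89 to -0.27 and -0.77 to -0.69. The other 3 pairs computed also overlapped at 24 h. RPA2 over RPA3 was 1.30 to 1.96 in DMSO and 1.11 to 1.54 at 1000 nM, CLSPN over TIPIN was 0.25 to 0.58 and 0.05 to 0.68, and POLD3 over POLD2 was -2.52 to -1.73 and -3.18 to -1.92. At 6 h the ranges at 1000 nM overlapped with DMSO in all 9 pairs, and that of PRIM1 over PRIM2, -0.33 to -0.19, lay within the DMSO range of -0.41 to 0.11. At 300 nM the library of the second type stood at -0.23 for PRIM1 over PRIM2 and the others at -0.91 and -1.05, and the part of library type in these ranges was not tested.

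**Figure D5:**
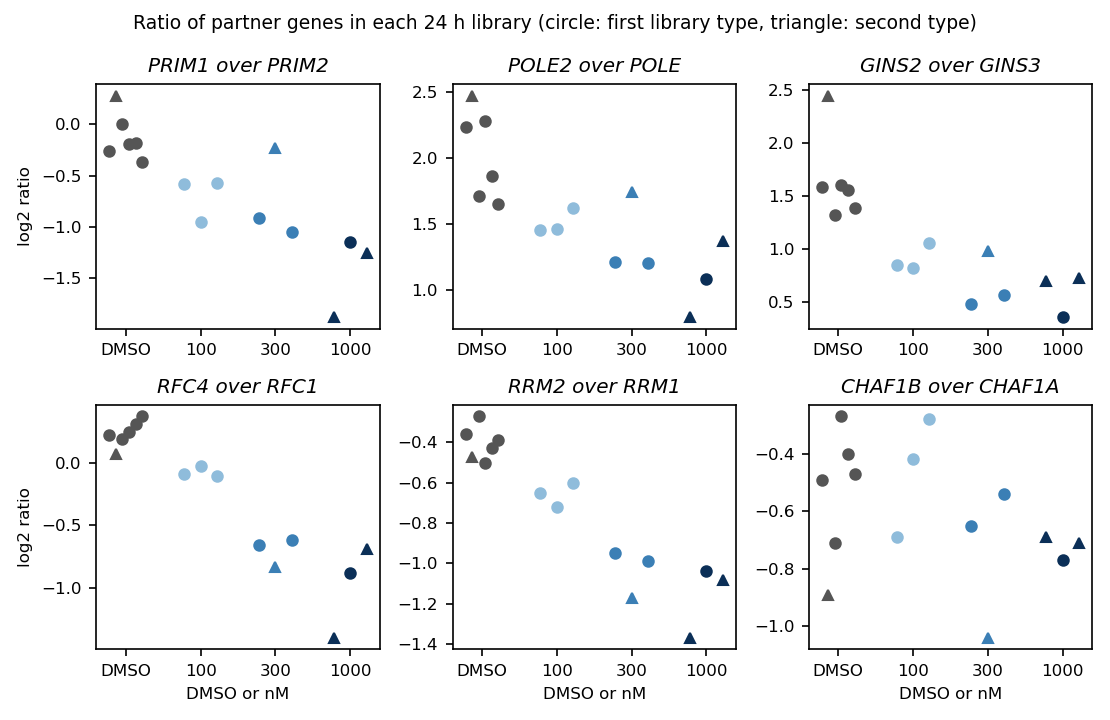
Log2 ratio of FPKM + 0.5 between partner genes (vertical axis, 1 panel for each of 6 of the 9 pairs, axes not from 0) in every 24 h library of DMSO, 100, 300 and 1000 nM (horizontal axis), with circles for libraries of the first type and triangles for the second. The ratio of RFC4 over RFC1 goes from 0.07 to 0.37 in DMSO to -1.40 to -0.69 at 1000 nM, whereas that of CHAF1B over CHAF1A overlaps.

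Other genes of the same processes were counted at 1000 nM and 24 h from lists that share no gene with the 40. The shares to read them against are 15.6% of all genes tested called lower and 19.1% called higher. Genes named here only because they were called (POLD4, REV1, POLI and RRM2B) were named after their values were seen, and no alternative was run for them. Of 18 further fork and initiation factors tested, 13 were called lower and 1 higher, with a median of -0.71, led by MCM10, a helicase cofactor, at -2.06 ± 0.10 (SE), the nuclease DNA2 at -1.32 ± 0.10 and WDHD1, which ties polymerase alpha to the helicase, at -1.30 ± 0.14, while RNASEH2B was at -0.08, at -0.25 with library type terms (adjusted p = 0.0233) and at -0.37 within the first type (adjusted p = 0.00673). The gene called higher was POLD4, the smallest subunit of polymerase delta, at 0.97 ± 0.33 (SE, limma adjusted p = 0.0197). Of 13 licensing genes, 13 were lower with a median of -1.63, led by CDC6 (-2.17), MCM2 (-1.93) and CDT1 (-1.90), with DBF4, the activator of the CDC7 kinase, nearest to 0 at -0.58 and at -0.36 without 1000 nM replicate 2 (adjusted p = 0.0814). Of 12 tested polymerases that do not copy at the fork, 2 were called lower and 3 higher, with a median of -0.17. POLH was at -0.54 and REV1 at -0.39, against POLK at 0.45, POLB at 0.43 and POLI at 0.41. POLG, the mitochondrial polymerase, was at -0.10, and at -0.28 in limma with array weights (adjusted p = 0.0392). POLK was at 0.20 with library type terms (adjusted p = 0.0686), and its call was lost without 1000 nM replicates 1 or 3 or DMSO replicates 1, 3, 5 or 6 (0.33 to 0.42), as was that of POLB without 1000 nM replicate 3 (0.38). Within the first type POLK was at 0.14 (adjusted p = 0.376) and POLB at 0.42 (adjusted p = 0.0521).

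Of 10 further nucleotide supply genes, 6 were called lower and 2 higher, with DCTPP1, which clears odd deoxycytidine triphosphates, at -1.60, NME1 at -1.05, the mitochondrial thymidine kinase TK2 at 0.77, RRM2B, the alternative small reductase subunit, at 0.50 and SAMHD1, which breaks down deoxyribonucleotides, at 0.06. Of 10 further chromatin assembly genes, 9 were lower, led by TONSL (-1.41), HELLS (-1.38) and NASP (-1.03). ASF1A, the paralog of ASF1B, was at 0.13, and at 0.22 in limma with array weights (adjusted p = 0.0367). TONSL was at -0.99 without 1000 nM replicate 3 (adjusted p = 0.0679).

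Of 12 E2F and cyclin genes, 8 were lower, with CCNE2 at -2.01, E2F1 at -1.92 and CCNE1 at -1.55. CCND1 was at -0.10 and was not called, but by voom it was called at -0.16 (adjusted p = 0.0149). Of all these lists, CCND1 and KIF20A were the genes called at 6 h and 1000 nM. CCND1 was at -0.51 ± 0.05 (SE, limma adjusted p = 6.06e-10). Of 18 mitosis genes, 18 were lower at 24 h, from AURKB at -1.37 to KIF20A at -0.39, with a median of -0.66, and KIF20A was higher by 0.22 ± 0.06 at 6 h (adjusted p = 0.0265). Genes of G1 to S entry and of mitosis moved beside the 40 genes at 24 h, and their part in the result was not tested.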

How the data were processed

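Poly(A) RNA of 60 MDA-MB-231 libraries was measured. Per the submitters' processing notes, the authors used STAR 2.4.2a, the build hg19, featureCounts 1.4.6-p2 of Subread and DESeq2, and per the labels' protocols the libraries were stranded and read from one end. The authors deposited log2(FPKM + 1) values, which were turned back into FPKM. Whole reads were recovered from the steps of the low values, with 100.0% of the 1304094 values above 0 within 0.01 of a whole read, which gave the depth per library (0.475 to 86.5 M) and sets the precision of low genes.

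Genes that reached 1 FPKM in 3 or more libraries (15866 of 36114 above 0) were fitted as log2(FPKM + 0.5) with limma 3.58.1 in R 4.3.3, with 1 mean per group of dose and time over all 60 libraries, a trend in the variance and robust estimates. Each of 18 comparisons was adjusted by Benjamini-Hochberg over all genes, and an adjusted p under 0.05 was called. The scripts were tested on simulated data. Alternatives were a pseudocount of 0.1, no filter, median-of-ratios scaling, only the groups compared, array weights, voom on the recovered reads, terms for library type, the first type alone, no libraries under 2 M reads, and leaving out each library. Library types came from an index of 6 minus 5 pseudogenes and from MT-ND6 (over 30 FPKM), chosen after the values were seen.

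The 40 genes, the other lists and the tests were chosen with earlier results of these data known. All 40 genes were described by role, and from each other list the genes with the largest changes and the gene nearest to 0 at 1000 nM and 24 h were named. Of the polymerases that do not copy at the fork, 12 of 13 passed the filter. Promoter sequences were read from the RefSeq table.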

Additional observations from a re-analysis of the deposited data

Results flagged for a closer look

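In 28 of 160 checks (40 genes in the DMSO groups of 4 times, 6 libraries each) 1 library stood far from the other 5. Chance alone marks about 1 group in 20, but genes of the same library are not separate checks. Most of the marks fell on the same few libraries of the second type. The share over all genes was not computed, so the count does not set the 40 genes apart from others. In DMSO at 24 h it was replicate 2, of the second library type and the shallowest library, which was highest for PRIM1 (17.8 FPKM, others 10.5 to 12.2), POLD3 (11.6), RFC1 (19.1), RFC4 (20.0), DSCC1 (15.9), RPA1 (60.6), EXO1 (17.0), TYMS (145), TIPIN (13.5) and CLSPN (19.1), and lowest for GINS3 (2.02), CHAF1B (7.26) and ASF1B (25.1). In DMSO at 3 h it was replicate 6, also of the second type, highest for PRIM1 (18.3), PRIM2 (18.8), EXO1 (22.7), RRM1 (103) and TIPIN (15.1) and lowest for POLD1 (4.33, others 11.0 to 18.2), POLD2 (40.6) and ASF1B (28.9). In DMSO at 1 h replicate 3, of the second type, was highest for POLD3 (16.6) and TIPIN (13.4) and lowest for POLD2 (35.7) and ASF1B (27.8). In DMSO at 6 h replicate 5, of the second type, was lowest for ASF1B at 35.7 FPKM. The remaining groups were RPA3 in DMSO at 1 h, where replicate 4 stood at 11.5 FPKM, and TYMS in DMSO at 6 h, where replicate 1 stood at 172.

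The effect of the compound differed between 24 h and 6 h, by the test of the difference itself, for 38 of the 40 genes at 1000 nM and for 27 at 100 nM, all with the lower value at 24 h.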

How the results depend on the processing

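At 24 h the number of the 40 genes called lower than DMSO at each dose stayed within 1.5 times under every alternative run. Leaving out each library in turn gave 30 to 32 at 100 nM, 36 to 40 at 300 nM and 38 to 39 at 1000 nM. Of 4824 alternative values of 268 single-gene results, 4731 kept their side of the threshold, 49 newly passed it and 44 no longer did. The sign turned in 135 of them, which belong to 52 results, and in 0 of these was the value called before or after. The 268 results take in the 6 h changes of the 40 genes, of which none was called in the main fit. These counts therefore do not measure the 24 h calls alone. With array weights, 5 genes were called lower at 1 h and 1000 nM, where 21.6% of all genes tested were. At 3 h the counts were 8, 8 and 10 at the 3 doses (15.0%, 11.8% and 13.6% of all genes). At 6 h they were 2, 4 and 2 (4.12%, 6.85% and 7.17%). The dose steps had 35 for 300 against 100 nM (8.49%) and 12 for 1000 against 300 nM (24.0%). The DMSO times had 25 at 24 against 6 h (9.91%) and 7 at 6 against 1 h (5.8%). With library type terms the counts were 2 at 300 nM and 1 at 1000 nM at 6 h (3.09% and 2.79% of all genes). They were 34 and 2 for the dose steps (2.74% and 0.0504%) and 22 and 2 for the DMSO times (14.4% and 1.85%). Within the first type they were 1 at 1000 nM and 6 h (4.36% of all genes) and 32 for the lower dose step (3.62%). For the DMSO times they were 25 and 1 (13.0% and 1.55%). Without libraries under 2 M reads they were 1 at 300 nM and 6 h (1.67%) and 2 for DMSO at 6 against 1 h (1.74%). With only the groups compared they were 0 for the lower dose step. There 4 of all genes were called lower and 1075 had an unadjusted p under 0.05. For DMSO at 24 against 6 h the count was 5 (0.92% of all genes). With voom the counts were 29 for the lower dose step (1.95% of all genes) and 6 for DMSO at 6 against 1 h (2.5%). The cause was not tested.

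Leaving out 1 library gave 0 to 1 at 300 nM and 6 h (1 without DMSO replicate 5) and 0 to 1 for DMSO at 6 against 1 h (1 without replicates 2 or 6 at 1 h, or 3 or 5 at 6 h), and 13 to 23 for the lower dose step. Over all genes, voom called 3738 lower and 2512 higher at 300 nM and 24 h, against 2247 and 2617 by limma. No paired analysis was possible because the replicate numbers were given in accession order and the labels number the libraries without a repeat. The first type leaves 3, 2 and 1 libraries at 100, 300 and 1000 nM at 24 h, and the spread of the lone library is assumed to be that of the other groups. Depth limits GINS3, PRIM1 and POLD1, whose lowest libraries held 5, 7 and 10 reads.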
